A study of Microcebus murinus with 18 samples.

Results

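The large subunit of the cytosolic ribosome was followed across the temporal cortex of the grey mouse lemur (Microcebus murinus), a small primate in which some old animals develop ß-amyloid plaques. The members were 46 genes that encode its proteins, and they were chosen by symbol: every probe set that the platform annotation pairs with a member symbol was taken, also where a snoRNA symbol stands beside it. This gave 114 of the 54675 probe sets on the array, for 43 genes, while RPL15, RPL26 and RPLP0 had no probe set under their symbol in the table used. Of the 114 probe sets, 80 passed the filter on low signals (at least 150 on at least 3 of 18 arrays, whatever the group), and these stood for 41 genes. RPL6 and RPL39 had only probe sets under the filter, with highest signals of 163 and 35.6. RNA came from 2 AD-like animals (old females with ß-amyloid plaques), 10 healthy old animals (3 males, 7 females) and 6 young adult animals (2 males, 4 females), all born in captivity, with 1 human genome array for each animal. Ages in years are not given in the labels. Since human probes were hybridized with lemur RNA, a signal also depends on how well probe and transcript match, so each probe set was compared only with itself between animals.

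The large subunit joins amino acids into protein: its rRNA forms the peptidyl transferase centre, and its proteins fold and brace that rRNA, line the tunnel through which the new chain leaves, carry the 5S rRNA in the central protuberance, and form the stalks that recruit elongation factors and release spent tRNA. Ribosomal proteins are made in near-equal amounts and assembled with rRNA in the nucleolus, and their mRNAs, which begin with a tract of pyrimidines, are translated under the control of the mTOR pathway. Neurons carry many ribosomes in the cell body and some in dendrites, where local protein synthesis serves synaptic plasticity.

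The arrays differed in ways that touch these genes. The mean signal of an array was 180 ± 23.8 in AD-like (SD, n = 2), 206 ± 27.8 in old (n = 10) and 186 ± 27.6 in young adult animals (n = 6), and the difference of 19.8 between old and young adult animals was within the spread (two-sided exact permutation test, p = 0.181). Poly-A control RNA was absent from 4 arrays, those of AD-like F2, old M1, old M2 and young adult M2. For GAPDH, the 3′ over 5′ control probe sets gave log2 ratios of 0.324 and 0.607 in AD-like animals, with means of 0.595 in old and 0.314 in young adult animals (old against young adult, two-sided exact permutation test, p = 0.239). Of 8 neuron markers 7 were kept, led by SNAP25, and their summed signal ran from 23170 to 49970 in AD-like, 34110 to 57930 in old and 15390 to 57680 in young adult animals, with a mean of 36570 in AD-like, 46610 in old and 37270 in young adult animals. None of 6 microglia markers passed the filter, and the astrocyte marker GFAP did not either. The choroid plexus markers TTR and FOLR1 and the red blood cell markers varied widely within each group. In whole tissue, fewer cells of a type and less RNA in each cell cannot be told apart.

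Between old and young adult animals, large-subunit genes lay higher in the old. Of the 41 genes, each represented by the brightest of its kept probe sets, 37 (90.2%) had a higher mean log2 signal in old animals, against 53.9% of all 14567 kept probe sets. The median difference over the 41 genes was 0.558 on the log2(signal + 16) scale, used for all differences here, against 0.0329 over all kept probe sets. At an unadjusted p under 0.05 (limma), 17 genes (41.5%) were higher and 0 were lower. Over probe sets, 23 of 80 (28.7%) were higher, against a background of 3.49% of all kept probe sets, and 0 were lower, against 2.42%. No member passed Benjamini-Hochberg adjustment over all kept probe sets (smallest adjusted p = 0.836), nor did any other kept probe set, so no single gene is called. The lowest old animal exceeded the highest young adult in 0 of the 80 member probe sets, against 0.0206% of all kept probe sets. Neuron markers ran the same way: 5 of the 7 were above 0, with a median difference of 0.38 (0.19 after quantile normalization) and 0 past an unadjusted p under 0.05, and their part in the members' difference was not tested.

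**Figure D1:**
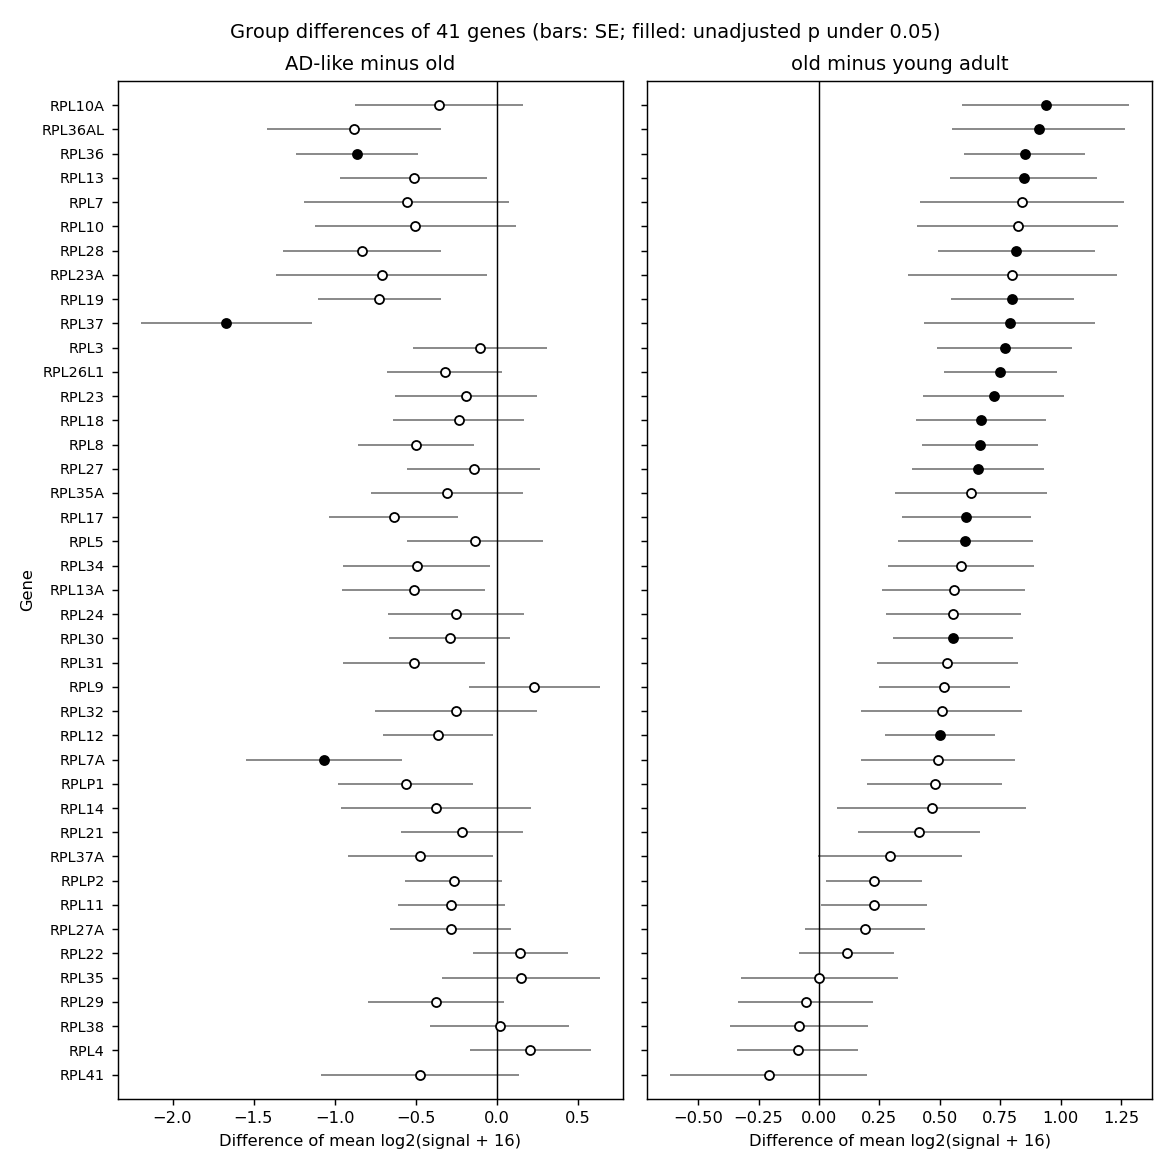
Difference of mean log2(signal + 16) for 41 large-subunit genes, AD-like minus old (left) and old minus young adult (right), with the gene on the vertical axis; points are limma estimates, bars are SE and filled points have an unadjusted p under 0.05. In the right panel 37 points lie above 0 and 17 are filled; in the left panel 36 lie below 0 and 3 are filled.

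The size of this difference depended on the scaling between arrays. Bright probe sets in general lay higher in old animals: of the 1584 kept probe sets with a mean signal of at least 1000, 86.3% had a difference above 0, the median was 0.262 and 8.46% were higher at an unadjusted p under 0.05. The 48 member probe sets among them had a median of 0.543, and 17 (35.4%) were higher. After quantile normalization, which gives all arrays 1 distribution of signals, the median of the bright probe sets was 0.0146. The 41 genes then had a median difference of 0.28, with 34 above 0 and 9 higher, and 11 of 80 probe sets (13.8%) were higher against 3.32% of all kept probe sets. The count of 23 probe sets became 11 without young adult M1 (against 2.06% of all kept probe sets), 13 without young adult F4 (against 2.54%) and 37 without old M1 (against 4.43%). Of the 17 genes 7 kept an unadjusted p under 0.05 without young adult M1, 9 without young adult F4 and 12 without old F3 or old F6. Over the 14 arrays with poly-A control RNA it was 41 (51.2%), against 4.42%.

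Most of the genes that brace the rRNA or face the tRNAs followed this pattern, with 20 of 22 above 0, 9 higher at an unadjusted p under 0.05 and a median of 0.642. The signal of RPL36 was 325 and 519 in the AD-like animals, 385 to 1132 (median 789) in the old and 267 to 636 (median 408) in the young adult animals. Thus 8 of 10 old animals exceeded every young adult, while old M1 and old F4 did not. RPL36 had the smallest p of all members (0.85 ± 0.250 SE, p = 0.00272, adjusted p = 0.836, limma). The signal of RPL8 was 775 and 436 in the AD-like animals, 525 to 1161 (median 911) in the old and 271 to 749 (median 541) in the young adult animals. RPL8, whose bacterial counterpart sits close to the catalytic centre, differed by 0.67 ± 0.239 (p = 0.011, limma). In 6 of 10 old animals it was above the highest young adult, and the groups overlapped in the rest.

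The signal of RPL13 was 464 and 248 in the AD-like animals, 178 to 669 (median 533) in the old and 115 to 462 (median 266) in the young adult animals. The young adult F1 animal was lowest in its group and old M1, at 178, far under the other old animals. The difference of RPL13 was 0.85 ± 0.303 (p = 0.0109, limma). The signal of RPL3 was 2006 and 3134 in the AD-like animals, 1649 to 4403 (median 2628) in the old and 807 to 2555 (median 1841) in the young adult animals. RPL3, which reaches with a loop towards the peptidyl transferase centre, differed by 0.77 ± 0.277 (p = 0.0117, limma), with old F3 and old F6 highest and young adult F4 and M1 lowest. Its other kept probe sets gave 0.23 to 0.39 and all missed the threshold (p = 0.15 to 0.484, limma). The signal of RPL36AL was 2177 and 1467 in the AD-like animals, 1258 to 5367 (median 3853) in the old and 678 to 3197 (median 2051) in the young adult animals. RPL36AL, an autosomal copy of the X-linked RPL36A whose product reaches the site from which tRNA leaves, differed by 0.91 ± 0.359 (p = 0.0194, limma). The 3 old males lay under 6 of the 7 old females, and young adult M2 was the lowest of all animals.

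RPL28 (0.82, p = 0.0205), RPL37 (0.79, p = 0.0368), RPL18 (0.67, p = 0.0213) and RPL27 (0.66, p = 0.0257) made up the remaining 4 of the 9 (limma, unadjusted). The signal of RPL18 was 1357 and 1304 in the AD-like animals, 641 to 2147 (median 1683) in the old and 515 to 1485 (median 1022) in the young adult animals. In 8 of 10 old animals RPL18 exceeded every young adult, and old M1 stood apart below. The signal of RPL27 was 2046 and 2016 in the AD-like animals, 1527 to 4041 (median 2179) in the old and 681 to 2117 (median 1542) in the young adult animals. Here old F3 was highest, and 5 old animals lay within the young adult range. Differences of like size that missed the threshold were those of RPL7 (0.84, p = 0.0593), RPL10 (0.82, p = 0.0606), RPL35A (0.63, p = 0.0581), RPL34 (0.59) and RPL13A (0.56, limma). These are values of the main probe sets. Another probe set of RPL7 passed it (0.62, p = 0.00772, limma). So did further ones of RPL13A (0.60, p = 0.0407, and 0.53, p = 0.0346, limma), while those at 0.40 and 0.20 did not. RPL10 joins the subunit late in its assembly, and RPL13A is also known as a translational repressor once released from the ribosome.

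In the same block, RPL9 (0.52), RPL32 (0.51), RPL7A (0.49), RPL14 (0.47), RPL37A (0.29) and RPL27A (0.19) had smaller positive differences. RPL29 (-0.055) and RPL38 (-0.084), a protein needed in mice for the translation of some Hox mRNAs, were the 2 with a difference below 0, neither beyond its SE. So the spread within the block was wide, and no member of it was lower at an unadjusted p under 0.05.

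Around the polypeptide exit tunnel 8 genes were measured, with 7 above 0, 3 higher and a median of 0.57. The signal of RPL19 was 957 and 2089 in the AD-like animals, 1679 to 3088 (median 2384) in the old and 706 to 1864 (median 1602) in the young adult animals. Of the old animals 8 of 10 exceeded every young adult, and young adult F4 and M1 were lowest. RPL19, a protein at the rim of the tunnel that also reaches the small subunit, differed by 0.80 ± 0.253 (p = 0.00478, adjusted p = 0.836, limma). The signal of RPL26L1 was 1031 and 866 in the AD-like animals, 927 to 1435 (median 1207) in the old and 342 to 1231 (median 754) in the young adult animals. All 10 old animals were above the young adult median, and young adult F2 lay within their range. RPL26L1 encodes a near copy of RPL26, a protein of the tunnel exit, and differed by 0.75 ± 0.235 (p = 0.00443, limma). Its old animals were close together (SD 185, against 307 in young adults).

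The signal of RPL17 was 4959 and 4158 in the AD-like animals, 4536 to 10302 (median 6864) in the old and 2451 to 6866 (median 5271) in the young adult animals. RPL17, which reaches into the tunnel, differed by 0.61 ± 0.266 (p = 0.0324, limma), and 5 of 10 old animals were above the young adult range. RPL23A (0.80, p = 0.0793), part of the docking site of the signal recognition particle, and RPL31 (0.53, p = 0.084) missed the threshold. RPL22 (0.11), RPL35 (0.0018) and RPL4 (-0.089), whose extension narrows the tunnel, had differences under their SE. The RPL35 groups were close in mean signal, with 178 ± 6.53 in AD-like, 174 ± 84.6 in old and 179 ± 92.1 in young adult animals (SD).

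The central protuberance was represented by RPL5, RPL11 and RPL21. RPL5 and RPL11 form a particle with the 5S rRNA, and when assembly fails the free particle binds MDM2 and so stabilises p53. The signal of RPL5 was 6628 and 6652 in the AD-like animals, 4321 to 10839.5 (median 7150.3) in the old and 2404 to 8085 (median 5477) in the young adult animals. The difference of RPL5 was 0.60 ± 0.280 (p = 0.0425, limma), with the 2 AD-like values nearly equal and young adult F4 and M1 lowest. The other kept probe set of RPL5 gave 0.14 ± 0.218 (p = 0.53, limma) and did not correlate with the first (r = -0.013). Between AD-like and old animals it gave 0.24, against -0.13 in the main probe set. The signal of RPL11 was 1503 and 1618 in the AD-like animals, 985 to 2399 (median 2125) in the old and 1246 to 2023 (median 1555) in the young adult animals. Although 6 of 10 old animals exceeded every young adult, old M1 was lowest of all 18, and the difference was 0.23 ± 0.219 (p = 0.308, limma). RPL21 differed by 0.41 ± 0.251 (p = 0.114).

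The 4 measured stalk proteins all had a difference above 0, and for RPL10A and RPL12 the unadjusted p was under 0.05. The signal of RPL10A was 216 and 135 in the AD-like animals, 117 to 484 (median 236) in the old and 27.2 to 185 (median 149) in the young adult animals. RPL10A forms the L1 stalk, which moves with the leaving tRNA. Its difference of 0.94 ± 0.345 (p = 0.013, limma) was the largest of the 41 genes, from low signals in every group, and 6 of 10 old animals exceeded every young adult. RPL12, at the base of the P stalk, averaged 2222 ± 209.9 in AD-like, 2966 ± 875 in old and 2047 ± 409 in young adult animals (SD), a difference between old and young adult of 0.50 ± 0.227 (p = 0.039, limma). The signal of RPLP1 was 2369 and 2412 in the AD-like animals, 1926 to 5442 (median 3869) in the old and 1366 to 4061 (median 2848) in the young adult animals. RPLP1 and RPLP2 pair at the tip of that stalk and call elongation factors to the ribosome. RPLP1 differed by 0.48 ± 0.278 (p = 0.1, limma), a difference close to that of RPL12, with old and young adult ranges that overlapped for most animals.

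The signal of RPLP2 was 1258 and 1339 in the AD-like animals, 1165 to 1969 (median 1580.3) in the old and 1136 to 2079 (median 1208) in the young adult animals. Young adult F3 was the highest of all animals for RPLP2 and the other 5 young adults lay at or under 1386. The difference of RPLP2 was 0.23 ± 0.198 (p = 0.261, limma), and after quantile normalization it was -0.022. RPL11 also turned, to -0.058, under that scaling.

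Bridges between the subunits were represented by 4 proteins. RPL23 averaged 2653 ± 977 in AD-like, 3041 ± 878 in old and 1964 ± 969 in young adult animals (SD), a difference between old and young adult of 0.72 ± 0.293 (p = 0.0226, limma). For RPL30 the mean was 4087 ± 1161 in AD-like, 5055 ± 1285 in old and 3509 ± 1190.2 in young adult animals (SD), and old differed from young adult animals by 0.56 ± 0.248 (p = 0.0364, limma). RPL24, whose protein reaches across to the small subunit, differed by 0.56 ± 0.279 (p = 0.0599). RPL41, the smallest ribosomal protein, had the lowest difference of the 41 genes (-0.21 ± 0.408, p = 0.616). Its signals were low, and young adult F4 and M1, which were low for most members, were the 2 highest animals for RPL41.

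**Figure D2:**
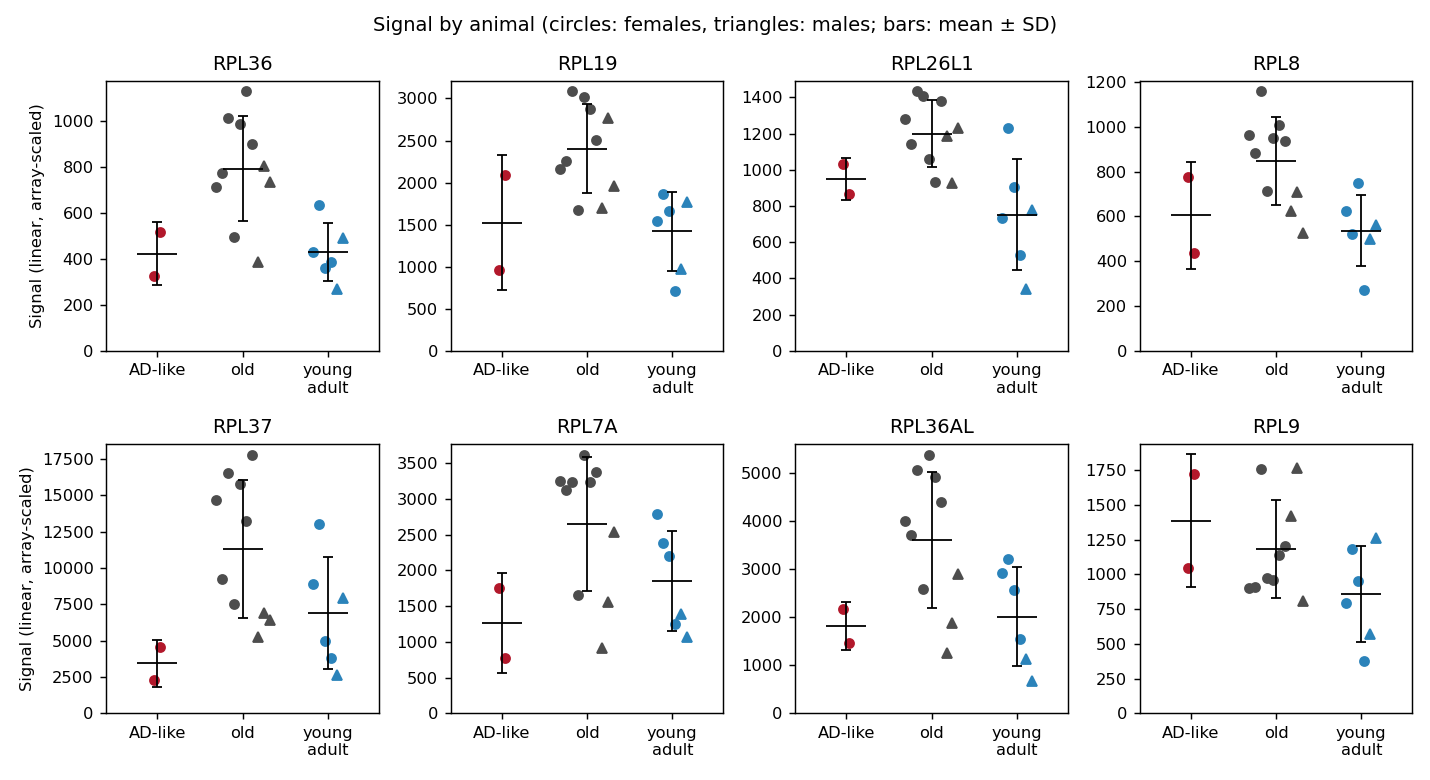
Linear array-scaled signal of 8 large-subunit genes in each animal, AD-like, old and young adult from left to right, with circles for females, triangles for males and bars for the mean ± SD (n = 2, 10 and 6). For RPL36 and RPL19, 8 of 10 old animals lie above every young adult, and for RPL26L1 4 of 10 do. For RPL37 both AD-like animals lie under all 10 old animals, and for RPL9 they do not.

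Between AD-like and old animals the differences ran the other way, with few of them beyond the spread. Of the 41 genes 5 (12.2%) had a difference above 0, against 48.1% of all kept probe sets, and the median was -0.36, against -0.0244. In 31 of 41 genes both AD-like animals lay under the old median, but the share over all kept probe sets was not computed. At an unadjusted p under 0.05, 3 of 80 probe sets (3.75%) were lower, against a background of 3.62%, and 0 were higher, against 1.22%, so the count of single calls was that of the array as a whole. None passed adjustment (smallest adjusted p = 0.715, limma; 1 kept probe set outside the members did). Bright probe sets (mean signal of at least 1000) ran the same way, with 19.1% above 0 and a median of -0.282. The 48 member probe sets among them were close to this, with 14.6% above 0 and a median of -0.314. After quantile normalization these 2 medians were 0.012 and -0.0308. The 41 genes then had a median of -0.116, with 25 below 0, and 2 of 80 probe sets (2.5%) were lower, against 3.62%. The comparison used the same old animals as that of old with young adult animals, so the 2 are not independent. The 3 lower probe sets became 5 without old M1 (6.25%, against 4.36% of all kept probe sets), while without old F1 2.5% were lower, against 3.23%. Without AD-like F1, which leaves 1 AD-like animal, the median over the 41 genes was -0.44.

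The 3 were those of RPL37, RPL36 and RPL7A. The signal of RPL37 was 2309.7 and 4596 in the AD-like animals, 5285 to 17746 (median 11219) in the old and 2669 to 13031 (median 6459) in the young adult animals. RPL37, a small zinc-binding protein in contact with the rRNA, thus had both AD-like values under those of every old animal, which held for 1 member probe set of 80 and for 1.63% of all kept probe sets, and no member was above all old animals (1.39%). Its difference was -1.67 ± 0.530 (p = 0.00495, adjusted p = 0.715, limma), a fold of 0.315. RPL36, with 325 and 519 in AD-like animals against a lowest old value of 385, differed by -0.86 ± 0.375 (p = 0.0321, adjusted p = 0.972, limma). The signal of RPL7A was 1755 and 771 in the AD-like animals, 919 to 3619.8 (median 3181) in the old and 1075 to 2791 (median 1802) in the young adult animals. The difference of RPL7A, which binds the rRNA, was -1.07 ± 0.479 (p = 0.0375, limma), with AD-like F2 and old M1 lowest in their groups. Single animals decided these values: without AD-like F1, RPL37 was -1.17 (p = 0.118, limma) and RPL36 -0.54 (p = 0.304, limma), and RPL7A was -0.48 (p = 0.458, limma) without AD-like F2 and -1.65 (p = 0.0173, limma) without AD-like F1. RPL7A also missed the threshold without any 1 of old F1, F3, F5, F6 and F7 (p = 0.0508 to 0.0526) and was at p = 0.05 without old F2.

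The next by p missed the threshold. RPL19 was 957 and 2089 in the AD-like animals, so that F1 lay under and F2 within the old range, and differed by -0.72 ± 0.380 (p = 0.0704, limma), or by -0.17 without AD-like F1. The signal of RPL28 was 2681 and 2037 in the AD-like animals, 2099 to 8827 (median 4185) in the old and 1221 to 3862 (median 2783) in the young adult animals. RPL28 differed by -0.83 ± 0.488 (p = 0.104) and RPL36AL, at 2177 and 1467 in AD-like animals, by -0.88 ± 0.538 (p = 0.117, limma). For both, old M1 and M2 were the lowest old animals. RPL17 (4959 and 4158 in AD-like animals) differed by -0.64 ± 0.399 (p = 0.127) and RPL8 (775 and 436) by -0.49 ± 0.358 (p = 0.182, limma), the last by -0.091 without AD-like F2. The other 33 genes ran between -0.71 for RPL23A and 0.23 for RPL9, with RPL4, RPL35, RPL22 and RPL38 also above 0.

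Both AD-like animals were female, and females alone gave more lower probe sets. Against the 7 old females, 16 of 80 probe sets (20%) were lower at an unadjusted p under 0.05 and 1 (1.25%) was higher, against 8.1% lower and 3.92% higher over all kept probe sets, and the median over the 41 genes was -0.53. Of the 16, 11 were main probe sets, among them RPL37 (-1.99 ± 0.461, p = 0.000624, adjusted p = 0.172), RPL36AL (-1.22, p = 0.00317), RPL7A (-1.35, p = 0.00353) and RPLP1 (-0.83, p = 0.023, limma), and none passed adjustment. Both AD-like animals lay under all old females for 17 of 80 probe sets (21.2%), against 6.74% of all kept probe sets. These included RPL37, RPL36AL, RPL17, RPL31 and RPLP1, whose highest AD-like signal was 2412, against a lowest old female at 2898. Old against young adult females gave 26 of 80 probe sets higher (32.5%), against 2.88%. The mean signal of the array was 197.2 in AD-like F1 and 163.6 in AD-like F2, under that of every old female (202.6 to 236.4). The array of AD-like F2 lacked poly-A control RNA, as did no array of an old female. The comparison of females was not refitted after quantile normalization, and the part of these array properties in the result was not tested.

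Between AD-like and young adult animals few differences passed an unadjusted p under 0.05. Of the 41 genes 28 (68.3%) had a difference above 0, against 51.3% of all kept probe sets, with a median of 0.119 against 0.0147. Of the 80 probe sets 1 was higher at an unadjusted p under 0.05 (1.25%, against 1.13%) and 1 was lower (1.25%, against 3.21%), and 0 passed adjustment (limma). Neither was a main probe set: they belonged to RPL38 (1.08) and RPL4 (-1.56). The smallest p among the 41 genes were those of RPL9 (0.75 ± 0.426, p = 0.0926), RPL37 (-0.88, p = 0.131), RPL3 (0.67, p = 0.144) and RPL27 (0.51, p = 0.247, limma). The signal of RPL9 was 1048 and 1724 in the AD-like animals, 807 to 1766 (median 1058) in the old and 379 to 1260 (median 874) in the young adult animals. In RPL9, a protein near the site where translation factors bind, both AD-like animals lay within the old range and above the young adult median. With 2 AD-like animals, the intervals are wide, and these p values do not show that the groups are alike. The 2 calls became 1 without AD-like F2, old F1, young adult F1 or young adult F3.

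Across the 3 groups, 14 of 80 probe sets (17.5%) and 10 of 41 genes passed an unadjusted p under 0.05 (limma F test), against 5.07% of all kept probe sets, and 0 passed adjustment (smallest adjusted p = 0.899). The 10 genes were RPL36 (p = 0.00503), RPL37 (p = 0.00848), RPL19 (p = 0.011), RPL26L1, RPL8, RPL13, RPL3, RPL28, RPL36AL and RPL10A. In all 10 the mean was highest in old animals. Between AD-like and young adult animals the log2 difference was -0.88 for RPL37 and near 0 for RPL36 (-0.011), RPL28 (-0.013) and RPL36AL (0.03). For the rest of the 10 it was above 0: RPL3 (0.67), RPL10A (0.58), RPL26L1 (0.43), RPL13 (0.34), RPL8 (0.17) and RPL19 (0.075). Without old M1 the count was 28 (35%, against 6.03% of all kept probe sets). It was 7 (8.75%) without old F3 or F6, against 4.55% and 4.41%, and 9 (11.2%) without old F5, against 4.48%. Without young adult F4 or M1 it was 5 (6.25%), close to the 4.03% and 4% of all kept probe sets.

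The age difference was set side by side in the sexes. The median over the 41 genes was 0.421 in males (3 old against 2 young adult) and 0.582 in females (7 against 4), with 34 and 39 genes above 0. The difference between sexes passed an unadjusted p under 0.05 for 4 of 80 probe sets (5%), against 4.65% of all kept probe sets, and for 0 of the 41 main probe sets, and 0 passed adjustment (smallest adjusted p = 0.982, limma interaction). The 4 belonged to RPL12, RPL13A, RPL18 and RPL29. The count was 2 without old M1, young adult F4 or young adult M1, and 8 without old M3, but the share over all kept probe sets was not computed for these fits.

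The members moved together from animal to animal. For each animal the 41 log2 signals, each centred on its gene's mean, were averaged. This member mean was -0.128 in AD-like F1 and -0.238 in AD-like F2, 0.217 ± 0.367 in old (SD, n = 10, -0.614 to 0.68) and -0.301 ± 0.39 in young adult animals (n = 6, -0.834 to 0.13). Old M1 was thus lower than 4 of the 6 young adults and above only young adult F4 and M1, while old F3 and F6 were highest. Among old animals the females averaged 0.39 ± 0.199 (n = 7) and the males -0.185 ± 0.375 (n = 3). The young adult females averaged -0.156 ± 0.361 (n = 4) and the 2 males -0.593 ± 0.341. This gap between the sexes depended on the scaling. After quantile normalization the old females averaged 0.143 and the old males 0.0568, and the young adult females, at -0.22, lay under the males, at -0.118.

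Array properties moved with the member mean. It averaged -0.307 ± 0.246 on the 4 arrays without poly-A control RNA (-0.614 to -0.023) and 0.0876 ± 0.43 on the other 14 (SD), and 2 of the 3 old males were among the 4. The lowest mean signals of an array, 151.4 in young adult M1 and 154.5 in old M1, stood beside the lowest and the third lowest member means. After quantile normalization the member mean was -0.188 and 0.133 in the AD-like animals, 0.117 ± 0.227 in old and -0.186 ± 0.221 in young adult animals, so that AD-like F2 then lay above all young adults. The part of these array properties in the group differences was not tested.

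**Figure D3:**
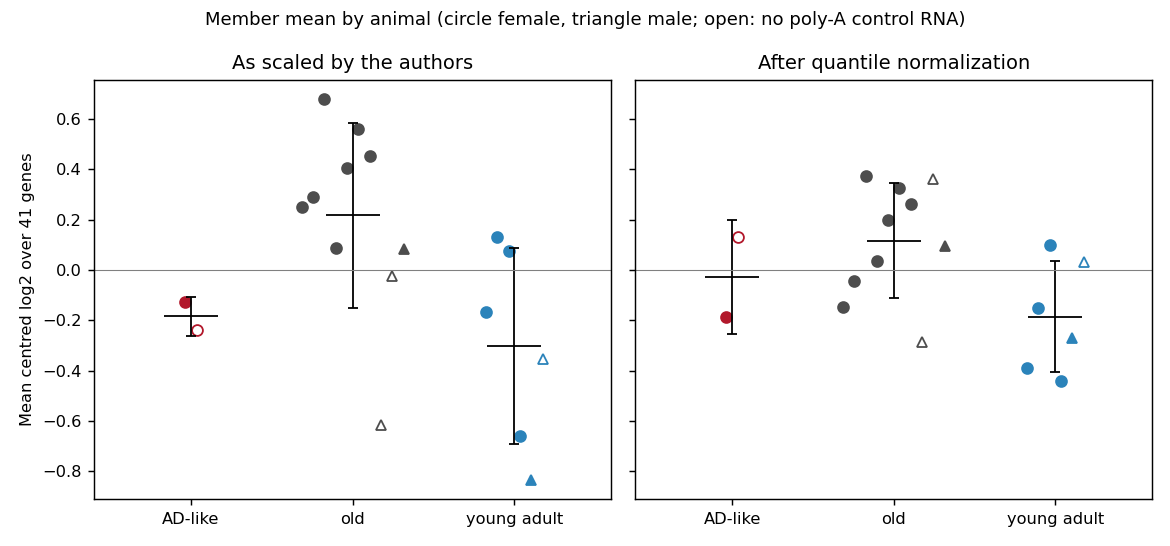
Mean centred log2 signal over 41 large-subunit genes in each animal, AD-like, old and young adult from left to right, with the authors' scaling (left) and after quantile normalization (right); circles are females, triangles males, open symbols arrays without poly-A control RNA and bars the mean ± SD (n = 2, 10 and 6). Old animals average 0.217 and young adults -0.301 on the left, 0.117 and -0.186 on the right.

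As a description over the 18 animals, the mean pairwise correlation of the 41 genes was 0.436, and 0.373 within groups, against 0.00937 for all kept probe sets and 0.0307 for 32 mitochondrial large-subunit genes. It was 0.485 for 26 small-subunit genes, and 0.443 within groups, so such values were not particular to the large subunit. Bright probe sets share the scaling of their array, and after quantile normalization the value was 0.268 for the members and 0.335 for small-subunit genes. Over all kept probe sets it was then 7.38e-05, since that scaling holds it near 0. A set of like brightness was not computed. The first principal component held 63.7% of the members' variance (36.1% after quantile normalization). For 20 genes the correlation with the mean of the other members exceeded 0.8, led by RPL17 (0.939), RPL30 (0.925), RPL10 (0.919) and RPL31 (0.919). After quantile normalization none exceeded it. Below 0 were RPL41 (-0.438), RPL4 (-0.177), RPL35 (-0.162), RPL27A (-0.102) and RPL22 (-0.016). These 5, with RPL29 and RPL38, were the 7 genes with the lowest differences between old and young adult animals.

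**Figure D4:**
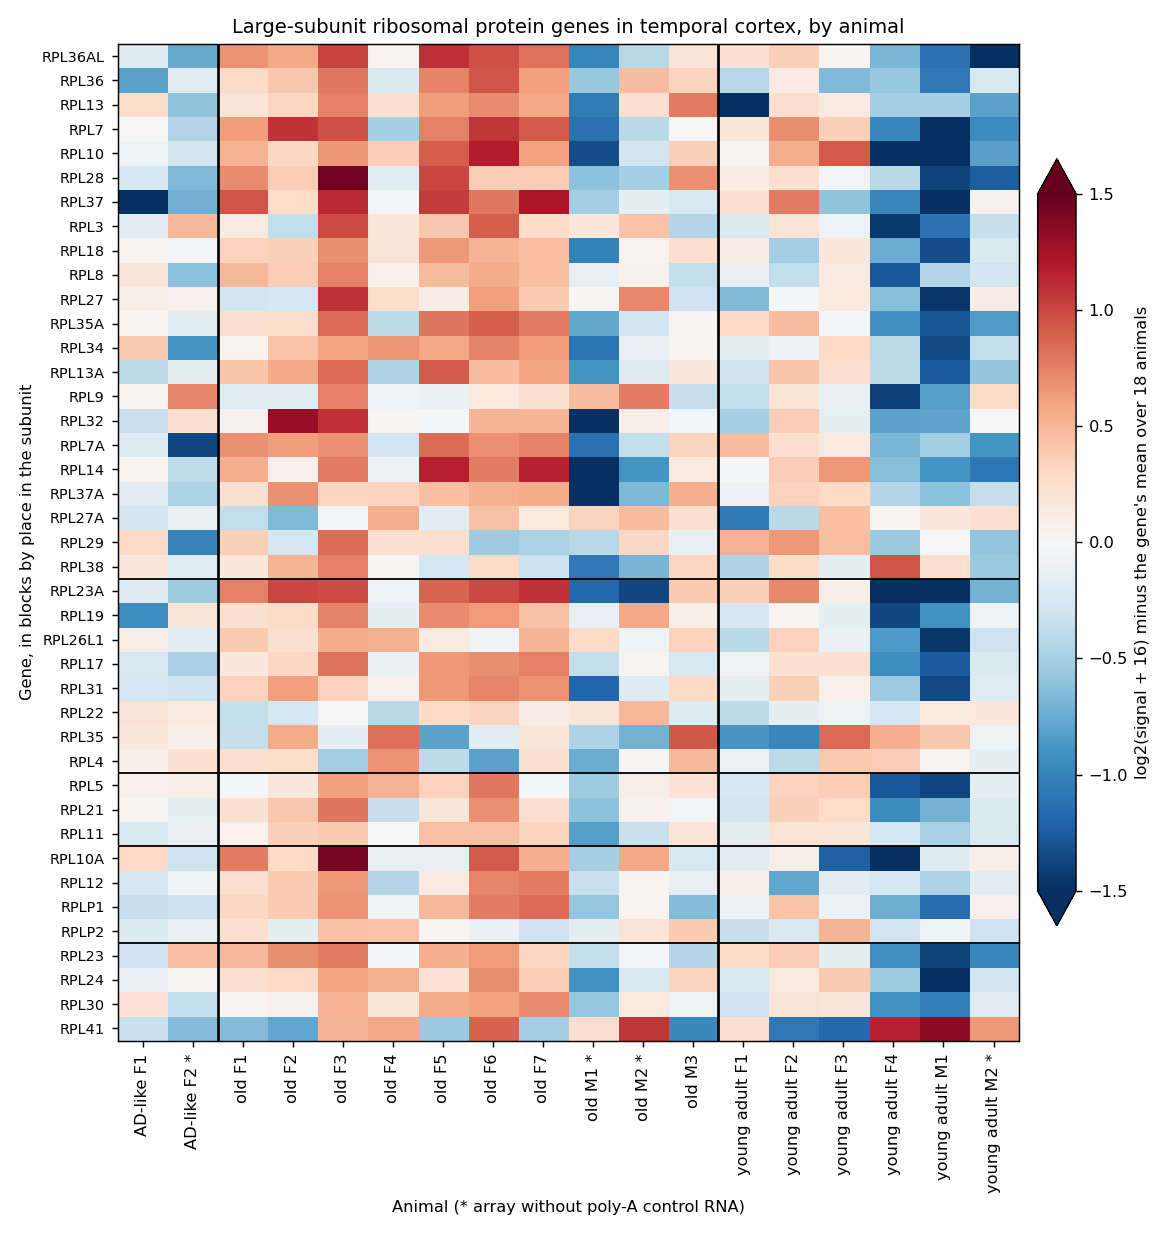
log2(signal + 16) of 41 large-subunit genes (rows, in blocks by place in the subunit) in 18 animals (columns, AD-like, old and young adult), each minus the gene's mean over all animals; red is higher and blue lower, and a star marks an array without poly-A control RNA. Most genes are red in old F3 and F6 and blue in old M1 and young adult F4 and M1. RPL41, RPL35 and RPL4 do not follow throughout, and others depart in single columns, such as RPL9 in old M1 and RPL38 in young adult F4.

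Other parts of the translation machinery gave values to set beside these. Of 26 measured small-subunit ribosomal proteins 25 had a higher mean in old than in young adult animals, with a median of 0.48, 9 higher (unadjusted p under 0.05) and 1 lower, and between AD-like and old animals 24 were below 0, 5 of them lower, with a median of -0.349. Elongation factors (9 measured) had medians of 0.26 in old against young adult and -0.288 in AD-like against old animals, with 0 and 1 passing. The 32 measured mitochondrial large-subunit proteins had medians of 0.126 and -0.224, with 2 higher and 1 lower, and 1 lower. Assembly and export factors of the large subunit (23 measured), which build the particle in the nucleolus and are not part of it, had medians of 0.0911 and 0.0811, with 1 passing in each direction in both comparisons. No member of these lists passed adjustment (limma), and the lists were not tested against each other.

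Agreement between probe sets of a gene was incomplete. Of the 21 genes with more than 1 kept probe set, 15 (71.4%) had the same sign of the difference between old and young adult animals in all of them, and 10 (47.6%) that between AD-like and old animals. After quantile normalization these were 10 (47.6%) and 12 (57.1%). Over the 18 animals the median correlation of 2 probe sets of 1 gene was 0.439 (66 pairs, -0.563 to 0.959), against 0.244 for probe sets of different members (3094 pairs). Of the 66 pairs 15 were above 0.8 and 11 below 0. Among the 80 kept probe sets 45 have names ending in _x_at, which marks probes that may bind transcripts of other genes, and ribosomal proteins have many processed pseudogenes. Without them 4 genes with more than 1 probe set remained, 1 with a shared sign between old and young adult animals and 3 between AD-like and old animals. The median correlation of 2 probe sets of 1 gene was then 0.0885 (4 pairs), against 0.18 for different members (591 pairs). Of single member probe sets without that ending, 13 of 35 (37.1%) were higher in old animals, against 3.4% of all kept probe sets without it.

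RPL23A, RPL17, RPL13 and RPL13A, each with at least 3 kept probe sets, shared their signs in both comparisons, as did RPL12. All kept probe sets of RPL23A, RPL13, RPL13A and RPL12 have names ending in _x_at, as do those of RPL17 other than the main one. They may therefore bind some of the same transcripts, and the part of this in their agreement was not tested. The 4 probe sets of RPL23A correlated at 0.78 to 0.959 and ran from 0.29 to 0.80 in old against young adult and from -1.25 to -0.46 in AD-like against old animals. RPL17, with 3 probe sets, correlated at 0.796 to 0.86, and its symbols overlap those of C18orf32 on the array. All 4 kept probe sets of RPL13 lay above 0 in old against young adult animals (0.52 to 1.18), and 3 of them passed an unadjusted p under 0.05, although they correlated at only -0.327 to 0.594. All 5 of RPL13A lay between 0.20 and 0.60 there and between -0.68 and -0.25 in AD-like against old animals, although its dimmest probe set gave the lowest correlation of the 66 pairs (-0.563).

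RPL37, RPL7A and RPL18 were examples of disagreement. The second probe set of RPL37 read 17.2 in AD-like F1 and 53.3 in AD-like F2, with a mean of 66.5 in old animals, so it was measured near the floor, and its differences were -0.52 ± 0.591 (AD-like against old) and -0.44 ± 0.394 (old against young adult). The first has the sign of the main probe set and the second does not. For RPL7A, the 3 probe sets gave -1.07, -0.36 and 0.17 between AD-like and old animals. In the last of these AD-like F2 had 2897, above all 10 old animals, while in the main probe set it had 771, below all of them. For RPL18, the other 2 probe sets were dim and gave 0.16 and -0.0032 between old and young adult animals, against 0.67 in the main probe set.

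RPL3 showed a split that followed the arrays. In 1 of its 5 probe sets the 4 arrays without poly-A control RNA were the highest, with 4375 in AD-like F2, 4202 in old M2, 2143 in old M1 and 2711 in young adult M2, against 827 to 2062 on the other 14 arrays. Its difference between old and young adult animals was 0.23 ± 0.317, against 0.77 ± 0.277 in the main probe set, and between AD-like and old animals 0.44 ± 0.476, against -0.10 ± 0.416. The part of the arrays in this split was not tested. The remaining genes with signs split between old and young adult animals were RPL22, RPL27A, RPL29 and RPL38, with differences between -0.57 and 0.46.

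**Figure D5:**
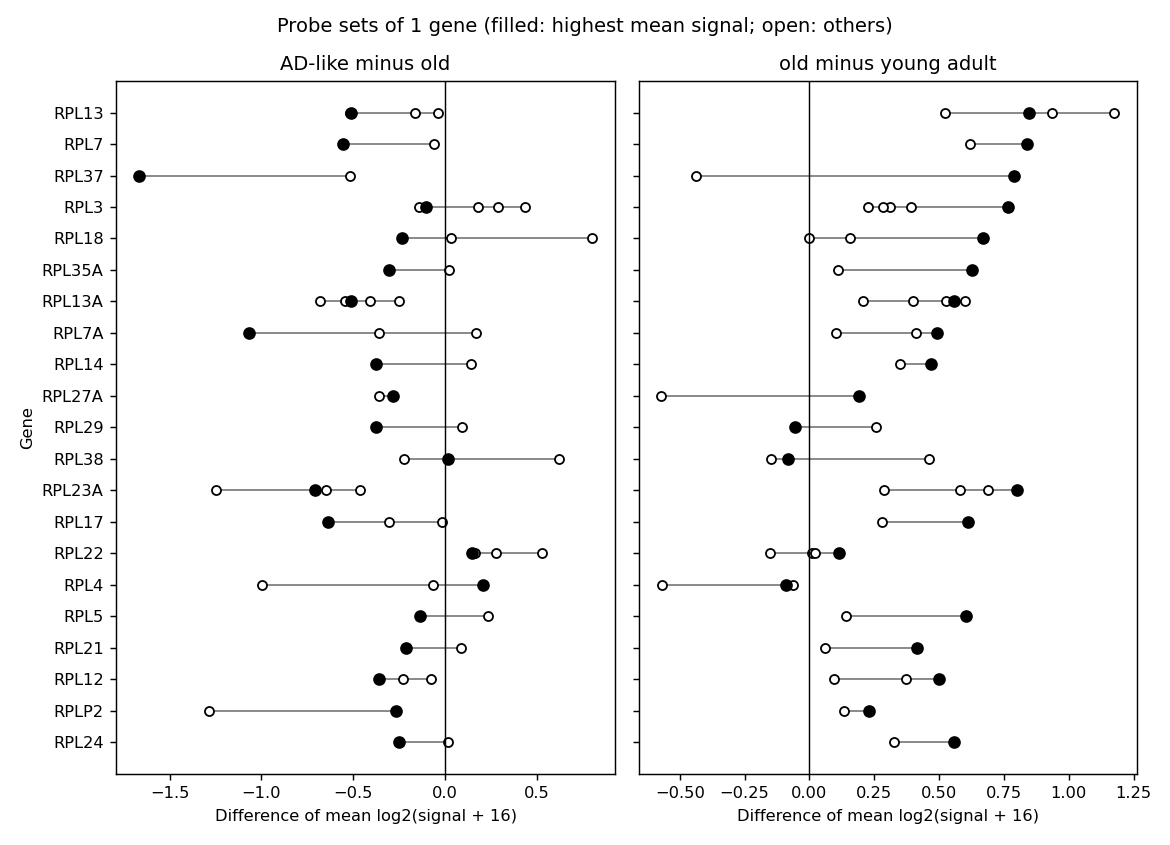
Difference of mean log2(signal + 16) for every kept probe set of the 21 genes with more than 1, AD-like minus old (left) and old minus young adult (right), with the gene on the vertical axis; filled points are the brightest probe sets and open points the others. On the right 15 genes have all points on 1 side of 0, on the left 10.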

How the data were processed

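Total RNA of 1 temporal cortex sample from each of 18 grey mouse lemurs had been labelled with biotin and hybridized to human genome arrays (HG-U133 Plus 2.0), 1 array for each animal. The authors made linear signals (intensity values) with GCOS 1.2 and the MAS5 algorithm and deposited them, and each array was found to have a trimmed mean of 100 (2% left out at each end). Detection calls were not used here, so a signal of at least 150 on at least 3 arrays took their place. Such scaling fixes the mean and not the shape of the distribution, which can move bright probe sets together.

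Signals were transformed to log2(signal + 16) and fitted with limma 3.58.1 in R 4.3.3 in 1 model of the 3 groups on all 18 arrays, with Benjamini-Hochberg adjustment over the 14567 kept probe sets and a threshold of 0.05. For the AD-like animals the spread was taken from all groups, and the number of arrays limits the precision. The age difference was compared between sexes by an interaction contrast. For array properties, exact permutation tests (two-sided) were used. The fit was tested on simulated data of this design. Each gene was represented by the brightest of its kept probe sets, by mean signal, and gene names came from the platform annotation, in which 12435 kept probe sets have 1 symbol, 576 several and 1556 none. Of the 80 kept member probe sets 35, for 15 genes, list further symbols, mostly of small RNAs in introns of the member gene; 10 (of RPL12, RPL13A, RPL17 and RPL21) list another gene or a pseudogene. Animals were grouped by their titles.

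Values by animal were given for the 8, 8 and 4 genes with the smallest p in old against young adult, AD-like against old and AD-like against young adult animals, for member genes in the paper's lists, for RPLP1, RPLP2, RPL5 and RPL11, and for genes whose probe sets disagreed with an unadjusted p under 0.05. The members, the lists and the tests were chosen with earlier results of these data known. Alternatives covered the offset, scaling, filter, sex, poly-A control RNA, RNA quality, the label codes as a block, the variance model, the methods' t-test and leaving out each animal. Of these, the comparison with old females alone by single values was added later. No column was left unused, and no sequences were printed because none were given for these probe sets.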

Additional observations from a re-analysis of the deposited data

Results flagged for a closer look

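Of 82 groups of animals checked, 3 held a signal far from the others, and chance flags about 1 in 20 such groups. RPL13 was 178.2 in old M1, against 444.4 or more in the other 9 old animals. RPL18 was 641.4 in old M1, against 1360 or more in the other 9. RPLP2 was 2079 in young adult F3, against at most 1386 in the other 5 young adults. The array of old M1 was also among those without poly-A control RNA and had the second lowest mean signal of all arrays (154.5).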

How the results depend on the processing

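The medians kept their sign under every alternative run: 0.28 to 0.732 for old against young adult and -0.56 to -0.116 for AD-like against old animals. No member passed adjustment under any alternative. Counts of probe sets at an unadjusted p under 0.05 moved more. For old against young adult, the 23 higher became 11 under quantile normalization (13.8%, against 3.32% of all kept probe sets). They became 41 on the 14 arrays with poly-A control RNA (51.2%, against 4.42%). Without _x_at probe sets they were 13 of 35, a higher share (37.1%, against 3.4%). Leaving out single animals gave 11 to 37 (13.8% against 2.06%, and 46.2% against 4.43%). For AD-like against old, the 3 lower (3.75%, against 3.62% of all kept probe sets) became 12 (sex as a covariate; 15% against 7.62%), 16 (females only; 20% against 8.1%) and 1 (the methods' t-test on linear signals), and 1 to 5 without single animals. For AD-like against young adult, the 2 became 1 (offset of 1, quantile normalization, 14 arrays, poly-A control as a block, either 3′ to 5′ ratio as a covariate, or no _x_at probe sets), 5 (no filter) and 4 (females only or the methods' t-test), and 1 to 3 without single animals. With no filter the 5 were 4.39% of members, against 4.93% of all probe sets tested, and for females only the 4 were 5%, against 8.35%. Across the 3 groups, the 14 (17.5%) became 9 under quantile normalization (11.2%, against 5.52% of all kept probe sets) and 25 with sex as a covariate (31.2%, against 9.82%). The count was 23 (28.7%) on the 14 arrays, against 5.72%, and with the beta-actin ratio, against 8.13%. It was 8 of 35 without _x_at probe sets, a higher share (22.9%), and 5 to 28 without single animals. For the difference between sexes, the 4 (5%, against 4.65% of all kept probe sets) became 9 (no filter), 2 (signal of at least 300) and 1 (no _x_at probe sets), and 2 to 8 without single animals. The share over all probe sets was not computed for these alternatives. The shared signs of 71.4% of genes became 47.6% (quantile normalization) and 25% (no _x_at probe sets). With the label code as a replicate block, the counts were 20, 11, 11 and 19 for old against young adult, AD-like against old, AD-like against young adult and the 3 groups, or 25%, 13.8%, 13.8% and 23.8% of members, against 3.43%, 9.84%, 12.7% and 12.1% of all kept probe sets. The labels give animals with the same code nothing in common but the number and the sex. Of 10 such pairs 6 correlated over 0.1 (-0.269 to 0.47), all 6 pairs of old and young adult animals lay above 0 and both pairs of AD-like F2 below. Of 14 animals 5 correlated best with their own code. The number to be found by chance was not computed, so these correlations cannot decide whether the codes mark pairs. As the labels state no pairing, the block was not used as one. The methods' t-test gave 24 of 80 members higher in old animals, against 3.28% of all kept probe sets, and 0 after adjustment. Its 1 lower member in AD-like against old animals stood beside 2.14% of all kept probe sets. Its 4 members in AD-like against young adult animals stood beside 3.58%. Of 27 gene results under 32 alternatives, 2 of 864 values reversed, RPLP2 (-0.022) and RPL11 (-0.058) under quantile normalization; the cause was not tested. The medians were not computed without a filter or with an intensity trend.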
